A study of Mus musculus with 18 samples.

Results

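The 38 genes described here encode the enzymes, the citrate carrier and the regulators through which the liver makes fatty acids, lengthens and desaturates them, and joins them to glycerol as triacylglycerol (TAG). They were taken by gene symbol from a table of 55487 genes, and each symbol was found once. All 38 were expressed highly enough to be tested in each comparison. Liver RNA of 18 male mice of the strain C57BL/6J was sequenced, 6 in each of 3 groups, with 1 library per mouse. The CON-GFP mice ate a purified control diet, and the FPC-GFP and FPC-LIPA mice ate a high-fat diet with added fructose, palmitate and cholesterol (FPC) and drank water containing fructose and glucose. Every mouse had received an adeno-associated virus of serotype AAV8 at 1 week before the diet began, which carried GFP in the CON-GFP and FPC-GFP groups and the human LIPA gene in the FPC-LIPA group. The vector's TBG promoter is active in hepatocytes, so the transgene was aimed at these cells. LIPA encodes lysosomal acid lipase (LAL), the enzyme that hydrolyses cholesteryl esters and TAG inside lysosomes. The mice were 7 weeks old at purchase, were fed for 16 weeks, and were killed after a 4 h fast. Livers of mice with LIPA on the control diet were not analysed here, so LIPA is compared only within the FPC diet.

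As background, the pathway begins when citrate leaves the mitochondrion through the carrier Slc25a1 and is split by ATP citrate lyase (Acly) into cytosolic acetyl-CoA, which Acss2 can also make from acetate. Malic enzyme (Me1) supplies NADPH. Acetyl-CoA carboxylase (Acaca, and its mitochondrial isoform Acacb) makes malonyl-CoA, which fatty acid synthase (Fasn) builds into palmitate. The Elovl enzymes lengthen the chain, Scd1 and Scd2 place the double bond of oleate, and the Fads enzymes act on polyunsaturated chains. Acyl-CoA synthetases (Acsl) activate fatty acids, and the glycerol-phosphate acyltransferases (Gpam, Gpat3, Gpat4), the Agpat enzymes and the Dgat enzymes add acyl chains to glycerol in turn, with the lipins removing the phosphate before the last step. In the liver this program is switched on by insulin through the sterol-regulatory transcription factor Srebf1 and by carbohydrate through Mlxipl (ChREBP), and Thrsp is a small protein induced with it. The row for Srebf1 sums its isoforms, so the form named 1c cannot be told apart from the form named 1a.

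Total counts per library ranged from 16632146 to 37739301. Since each library is 1 mouse, p-values measure the spread between mice. Values for single genes are depth-scaled counts (CPM), normalised by the TMM method over the 18 libraries, and n = 6 mice in every group. A member is said to have risen or fallen only where edgeR's quasi-likelihood test gave a Benjamini-Hochberg adjusted p under 0.05 over all genes tested, and a log2 fold change is given ± its standard error (SE). Markers of hepatocytes were abundant in every library, with a summed level of 74117 to 111278 CPM over 8 genes in CON-GFP, 63044 to 89944 in FPC-GFP and 49596 to 77125 in FPC-LIPA. The 8 macrophage and Kupffer cell markers summed to 161 to 327, 430 to 892 and 916 to 1420 CPM in the same order. Adipocyte markers, whose cells also express much of this pathway, summed to 22.6 to 36.2, 18.9 to 77.2 and 7.54 to 29.8 CPM over 6 genes, with Lep at 3 counts or fewer in every FPC-GFP library and Retn in every FPC-LIPA library. In whole liver, fewer cells of a type and less RNA per cell cannot be told apart. The libraries FPC-LIPA 36, 37 and 39 stood apart: 87 cytosolic ribosomal protein genes took 6.49%, 8.10% and 8.16% of their counts, against 2.95%, 2.42% and 2.17% in FPC-LIPA 31, 33 and 34, 1.44% to 1.80% in FPC-GFP and 1.75% to 2.54% in CON-GFP. The count table is of mouse genes, so the human transgene was not measured here. Mouse Lipa differed between FPC-LIPA and FPC-GFP by a log2 fold change of -0.16 ± 0.18 (edgeR adjusted p = 0.513).

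Per kilobase of exon, Scd1 was the most highly expressed member in all groups, at 2401 ± 1232 RPKM (reads per kilobase of exon scaled by depth, mean ± SD) in CON-GFP, 6251 ± 1059 in FPC-GFP and 7383 ± 1695 in FPC-LIPA. This enzyme, which converts stearate to oleate, alone took 0.109% to 1.65% of all counts in CON-GFP, 2.51% to 3.92% in FPC-GFP and 2.77% to 4.16% in FPC-LIPA. In CON-GFP the next members in order of RPKM were Thrsp at 389 ± 221, Elovl3, an elongase of very long saturated chains, at 309 ± 215, and Fads2, the delta-6 desaturase, at 190.4 ± 68.4. The ranges of these genes overlapped widely, so their order is not fixed by 6 mice. In FPC-GFP the order after Scd1 was Fads2 at 364 ± 111 RPKM, Elovl5 at 316 ± 62.7 and Thrsp at 232 ± 133. In FPC-LIPA it was Elovl5 at 375 ± 97.6 RPKM, Thrsp at 208 ± 121 and Fads2 at 183 ± 69.7. At the low end stood Elovl7, at 0.0607 ± 0.0403 RPKM in CON-GFP, and Fads3, Scd2, Pnpla3 and Lpin3, each between 0.583 and 1.29 RPKM on average in CON-GFP. Fasn and Acaca, the enzymes that build palmitate, ranked 21 and 31 of 38 in CON-GFP at 19.7 ± 11.9 and 4.33 ± 1.60 RPKM. The 37 members other than Scd1 together took 0.534% to 0.851% of counts in CON-GFP, 0.957% to 1.17% in FPC-GFP and 0.597% to 0.925% in FPC-LIPA. In this share of raw counts the FPC-GFP libraries lay above all libraries of both other groups. FPC-LIPA 36, 37 and 39 lay within the CON-GFP range, and FPC-LIPA 31, 33 and 34 lay above it. The share was taken without TMM scaling, so this order of libraries need not hold on the CPM scale.

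**Figure D1:**
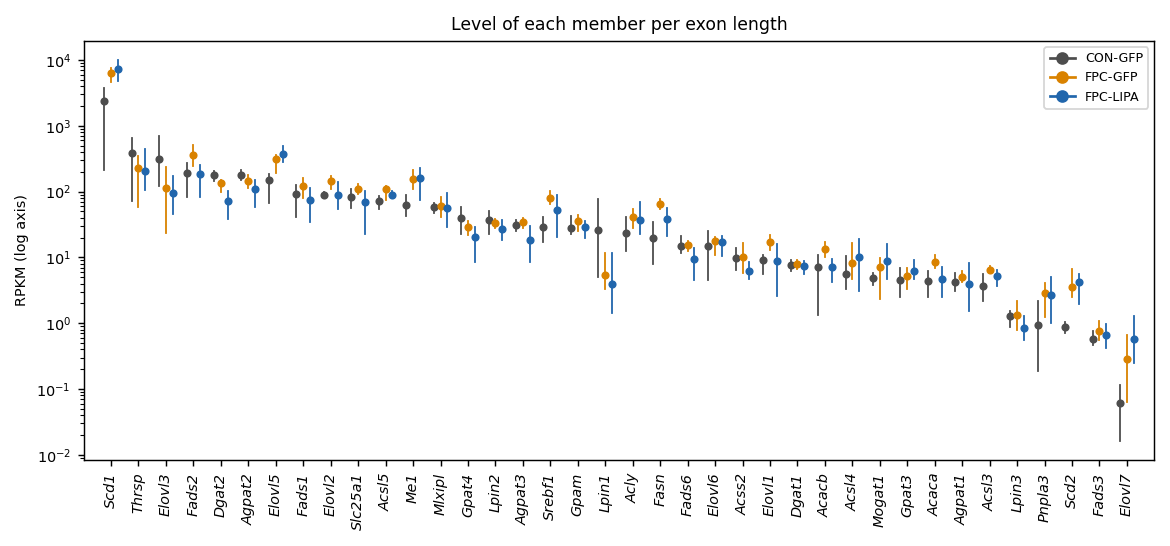
The level of each member per exon length in RPKM (log axis), with dots for the group mean and lines from the lowest to the highest of 6 libraries, ordered by the CON-GFP mean. Scd1 stands highest in all groups at 2401, 6251 and 7383 RPKM, and Elovl7 lowest at 0.0607, 0.287 and 0.583 RPKM.

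The first comparison, FPC-GFP against CON-GFP, asks what the FPC diet changed. Members of de novo synthesis, desaturation and elongation rose with the diet, and the 2 members that fell, Lpin1 and Dgat2, belong to glycerolipid synthesis. Of the 38 members 15 rose, which is 39.5%, where 12.9% of the 14307 genes tested rose. The 2 that fell are 5.26% of the members, where 10.9% of all genes fell. With a change of at least 2-fold as well, 8 were higher, or 21.1% against 4.76% of all genes, and 1 was lower, or 2.63% against 2.44%. In 10 members every FPC-GFP library was above every CON-GFP library, or 26.3% against 5.61% of all genes, and in 0 members was every library below, against 4.82%. At an unadjusted p under 0.05, edgeR had 18 members higher and 4 lower, and the share of all genes at that threshold was not counted. The DESeq2 Wald test also called 15 higher and 2 lower at an adjusted p under 0.05, where 2101 and 1965 of 25489 genes were. The median log2 fold change was 0.40 over the members and 0.01 over all genes tested. Scaling by library size alone moved the median of all genes by 0.20 on the log2 scale and gave 3387 genes that rose and 692 that fell in place of 1850 and 1560, and 20 and 1 members in place of 15 and 2. By role, the diet raised 1 of 3 regulators, 2 of 4 genes of carbon and NADPH supply, 2 of 3 of fatty acid synthesis, 3 of 6 desaturases, 4 of 6 elongases, 2 of 3 acyl-CoA synthetases and 0 of 12 glycerolipid genes, in which 2 fell and 10 did not pass, and the lipid droplet gene Pnpla3.

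**Figure D2:**
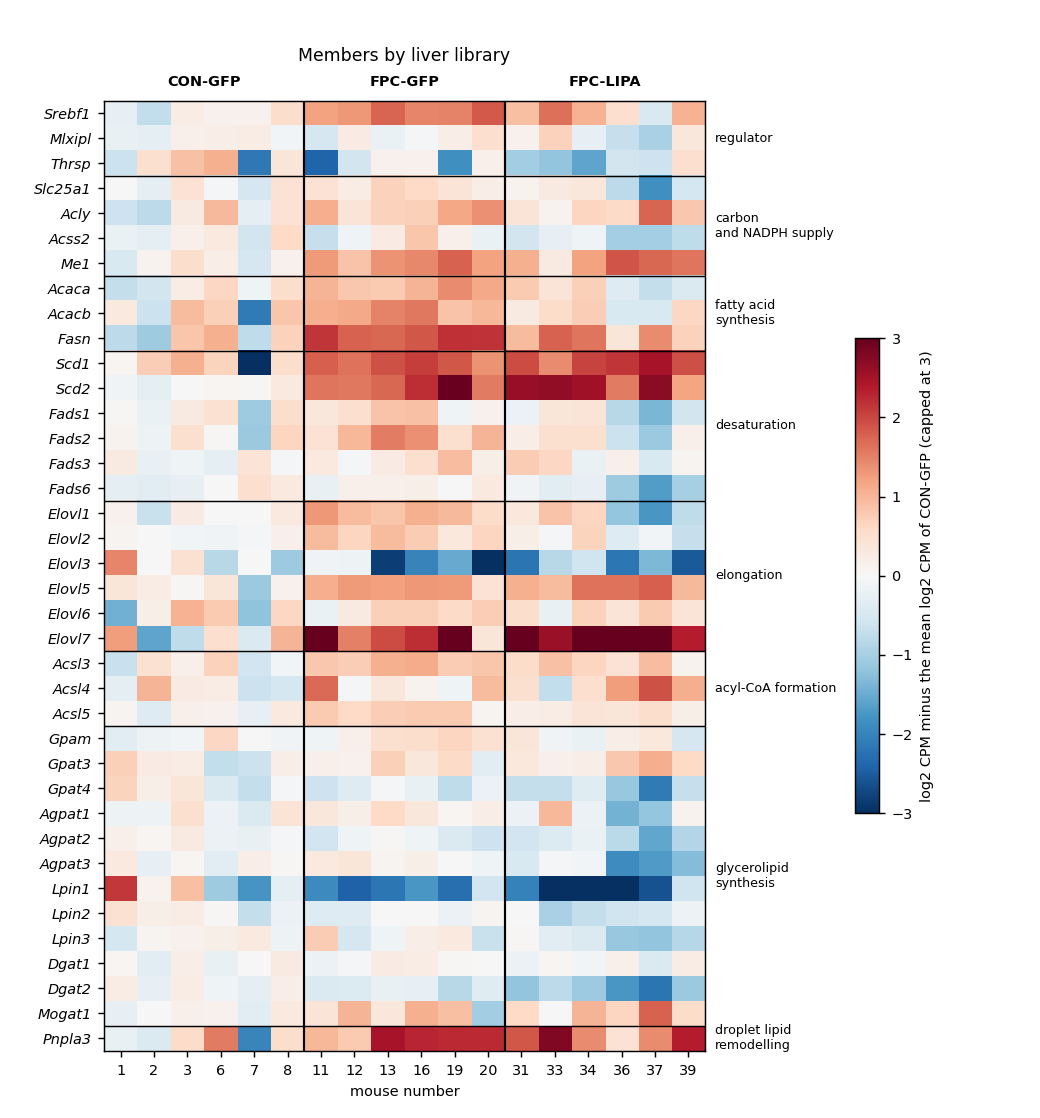
Log2 CPM of each member (rows, by role) in each liver library (columns, by mouse number), relative to the mean log2 CPM of CON-GFP, with the colour capped at 3 in either direction. FPC-GFP columns are red for Srebf1, Me1, Fasn, Scd1, Scd2 and Elovl5 and blue for Lpin1, and the CON-GFP 7 column is blue for Scd1, Thrsp and Acacb.

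Among the regulators, Srebf1 rose 2.80-fold with the diet. Its lowest, median and highest levels were 95.5, 172 and 227.9 CPM in CON-GFP and 365, 443 and 567 CPM in FPC-GFP. The groups did not overlap, and the log2 fold change was 1.49 ± 0.18, edgeR adjusted p = 0.000198. Mlxipl, the carbohydrate-responsive factor, had 264, 329 and 372 CPM in CON-GFP and 225, 337 and 456 CPM in FPC-GFP. The FPC-GFP mice spanned the whole CON-GFP range, and Mlxipl did not pass (log2 fold change 0.06 ± 0.16, edgeR adjusted p = 0.798). Thrsp had 155, 918 and 1431 CPM in CON-GFP and 129.9, 607 and 764 CPM in FPC-GFP. Both groups were widely spread, with CON-GFP 7, FPC-GFP 11 and FPC-GFP 19 far below their groups, and the log2 fold change was -0.74 ± 0.49, edgeR adjusted p = 0.282. Thrsp did not pass.

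Of the genes that supply carbon and reducing power, Me1 rose 2.46-fold. It had 165, 256 and 338 CPM in CON-GFP and 423, 586 and 806 CPM in FPC-GFP. The lowest FPC-GFP library was above the highest CON-GFP library (log2 fold change 1.30 ± 0.19, edgeR adjusted p = 0.000439). Acly had 65.1, 114 and 218 CPM in CON-GFP and 146, 211 and 288 CPM in FPC-GFP. The groups overlapped, and Acly rose by a log2 fold change of 0.82 ± 0.27, edgeR adjusted p = 0.0371. This call was lost without CON-GFP 1, 2, 3 or 7 or FPC-GFP 11, 19 or 20 (edgeR adjusted p = 0.0524 to 0.0749). The citrate carrier Slc25a1 did not pass at 0.40 ± 0.16, edgeR adjusted p = 0.0781, with 122 to 234 CPM in CON-GFP and 201 to 282 CPM in FPC-GFP, nor did the acetate-using Acss2 at 0.06 ± 0.23, edgeR adjusted p = 0.858.

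In fatty acid synthesis itself, Fasn had the largest change of the 3 members, a 3.35-fold rise. Its lowest, median and highest levels were 87.2, 199.8 and 379 CPM in CON-GFP and 599, 728 and 833 CPM in FPC-GFP. The CON-GFP values lay in 3 libraries (1, 2 and 7) at 87.2 to 106 CPM and 3 (3, 6 and 8) at 293 to 379 CPM, and all FPC-GFP libraries were above both. The log2 fold change was 1.74 ± 0.34, edgeR adjusted p = 0.0026, and it was 1.60 ± 0.33, edgeR adjusted p = 0.00448 without CON-GFP 7. Acaca had 42.5, 72.7 and 107 CPM in CON-GFP and 119, 140.2 and 184 CPM in FPC-GFP, again without overlap (log2 fold change 0.96 ± 0.21, edgeR adjusted p = 0.00572). Acacb, whose malonyl-CoA restrains the entry of fatty acids into mitochondria, had 12.7, 78.999 and 106 CPM in CON-GFP and 99.2, 119 and 166 CPM in FPC-GFP. CON-GFP 7 was the lowest library by far, the groups overlapped, and Acacb did not pass (log2 fold change 0.91 ± 0.36, edgeR adjusted p = 0.0772).

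Of the desaturases, Scd1 rose 2.60-fold and Scd2 rose 4.09-fold. Scd1 had 1058, 13458 and 18515 CPM in CON-GFP and 22379, 31490.2 and 37250.2 CPM in FPC-GFP. The groups did not overlap, and CON-GFP 7 at 1058 CPM was far below the next CON-GFP library at 9273 CPM. The log2 fold change of Scd1 was 1.38 ± 0.42, edgeR adjusted p = 0.0278, and 1.14 ± 0.18, edgeR adjusted p = 0.00104 without CON-GFP 7. The Scd1 call was lost without CON-GFP 1 (adjusted p = 0.0561, edgeR) or FPC-GFP 16 (adjusted p = 0.0501, edgeR). Scd2 is an isoform best known from brain and from the newborn liver. It had 3.89, 4.69 and 5.70 CPM in CON-GFP and 13.7, 14.8 and 36.7 CPM in FPC-GFP, without overlap (log2 fold change 2.03 ± 0.23, edgeR adjusted p = 0.000118). Scd2 counts were 0.0249% to 0.452% of the Scd1 counts of the same library, and how reads shared by these paralogs were counted is not given in the sources used here, so the Scd2 values are uncertain. In CON-GFP 7, where Scd1 was lowest, Scd2 was at 4.79 CPM, within the 3.89 to 5.70 CPM of its group.

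The fatty acid desaturases Fads1, Fads2 and Fads3 lie side by side on chromosome 19 of GRCm38 (Fads3 at chr19:10041569-10060110, Fads2 at chr19:10062765-10101746 and Fads1 at chr19:10182888-10196877). Fads2 had 273, 618 and 910.3 CPM in CON-GFP and 793, 1186 and 1702 CPM in FPC-GFP. The groups overlapped, and Fads2 rose by a log2 fold change of 0.94 ± 0.26, edgeR adjusted p = 0.0171. Its neighbour Fads1, the delta-5 desaturase, had 199.7, 467 and 607 CPM in CON-GFP and 385, 562 and 774 CPM in FPC-GFP. Fads1 did not pass (0.39 ± 0.24, edgeR adjusted p = 0.24), and CON-GFP 7 was its lowest control library as it was for Fads2. Fads3 at 0.36 ± 0.20, edgeR adjusted p = 0.193 and Fads6 at 0.07 ± 0.15, edgeR adjusted p = 0.766 did not pass either.

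Of the elongases, Elovl5, which acts on polyunsaturated chains, had 236, 574 and 653 CPM in CON-GFP and 682, 1213 and 1256 CPM in FPC-GFP. It rose 2.08-fold without overlap, although CON-GFP 7 and FPC-GFP 20 were each far below their groups (log2 fold change 1.06 ± 0.22, edgeR adjusted p = 0.00363, and 0.90 without CON-GFP 7). Elovl2, which follows it in the making of long polyunsaturated chains, had 324, 343 and 389 CPM in CON-GFP, the tightest of all members there, and 432, 571 and 678 CPM in FPC-GFP. Every FPC-GFP library was higher, and Elovl2 rose 1.66-fold (log2 fold change 0.73 ± 0.12, edgeR adjusted p = 0.00105). Elovl1, an elongase of very long chains, had 15.3, 25.3 and 29.5 CPM in CON-GFP and 35.6, 47.0 and 59.8 CPM in FPC-GFP. It rose 1.92-fold without overlap (0.94 ± 0.15, edgeR adjusted p = 0.000837). Elovl7 rose 4.63-fold from a very low level of 0.0649, 0.211 and 0.462 CPM to 0.250, 0.827 and 2.61 CPM, where the lowest CON-GFP library held 1 count and the lowest FPC-GFP library 5 counts (2.21 ± 0.54, edgeR adjusted p = 0.00987). Elovl6, the elongase that turns palmitate into stearate and a usual companion of Fasn, had 29.3, 106 and 164 CPM in CON-GFP and 69.5, 124 and 132 CPM in FPC-GFP. The control mice spanned more than the FPC-GFP mice, with CON-GFP 1 and 7 lowest, and Elovl6 did not pass (0.24 ± 0.35, edgeR adjusted p = 0.65). Elovl3 had 239, 512 and 1406 CPM in CON-GFP and 47.1, 153 and 471 CPM in FPC-GFP. Its fitted log2 fold change was -1.43 ± 0.55, edgeR adjusted p = 0.0693, with overlap, so it did not pass.

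Acsl3, an acyl-CoA synthetase of lipid droplets and the endoplasmic reticulum, had 9.36, 15.4 and 24.1 CPM in CON-GFP and 25.0, 26.3 and 32.5 CPM in FPC-GFP. All FPC-GFP libraries were above all CON-GFP libraries (log2 fold change 0.82 ± 0.20, edgeR adjusted p = 0.0108). Acsl5 had 266, 373 and 424 CPM in CON-GFP and 365, 585 and 597 CPM in FPC-GFP. Only FPC-GFP 20 lay within the control range, and Acsl5 rose by 0.63 ± 0.14, edgeR adjusted p = 0.00665. Acsl4, which favours arachidonate, did not pass (0.54 ± 0.34, edgeR adjusted p = 0.262). The strand setting of the counting is not given in the sources used here, so the values of the 16 members that share exon bases with another gene, 13 of them with a gene on the opposite strand, are uncertain. The overlapping gene had a mean of at least 10 CPM in 4 cases: Acsl5 shares 404 bases with Zdhhc6, Acss2 395 with Gss, Agpat2 64 with Egfl7 and Elovl6 34 with Gm35986. Among those below 10 CPM, Srebf1 shares 109 bases with Rai1 (9.02 CPM), Acsl3 244 with Utp14b on the same strand (4.55 CPM) and Elovl1 53 with Cdc20 (2.07 CPM).

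Of the 12 glycerolipid genes 0 rose and 2 fell by edgeR, where 12.9% and 10.9% of all genes tested did. In a set of 12, such counts are not far from those shares. By the DESeq2 Wald test 0 rose as well, and at an unadjusted p under 0.05 1 (Mogat1) was higher by edgeR, at 0.57 ± 0.26 on the log2 scale. Gpam, the mitochondrial enzyme of the first acylation, had 149.6, 173 and 286 CPM in CON-GFP and 169, 257 and 289 CPM in FPC-GFP. The groups overlapped and Gpam did not pass (0.35 ± 0.17, edgeR adjusted p = 0.137). Lpin1, a phosphatidate phosphatase that also acts as a coregulator of fasting genes, had 49.4, 161 and 735 CPM in CON-GFP and 31.5, 41.5 and 113 CPM in FPC-GFP. CON-GFP 1 was the highest by far, CON-GFP 6 and 7 lay within the FPC-GFP range and FPC-GFP 16 and 20 within the CON-GFP range, and Lpin1 fell 4.73-fold (-2.24 ± 0.55, edgeR adjusted p = 0.0102). In the fit lacking CON-GFP 1 the log2 fold change of Lpin1 was -1.54 ± 0.43, edgeR adjusted p = 0.025. Dgat1, 1 of the 2 enzymes of the last acylation, had 18.7, 23.8 and 28.2 CPM in CON-GFP and 20.6, 23.5 and 27.5 CPM in FPC-GFP. These ranges were nearly the same, and the log2 fold change was 0.04 ± 0.11, edgeR adjusted p = 0.808. Dgat2, the other, had 452, 566 and 643 CPM in CON-GFP and 308, 420.1 and 470.1 CPM in FPC-GFP. Dgat2 fell 1.33-fold with overlap (-0.42 ± 0.13, edgeR adjusted p = 0.036), and the call was lost without CON-GFP 1, 3 or 8 or FPC-GFP 11, 12 or 19 (edgeR adjusted p = 0.0584 to 0.0791). Of the hepatocyte markers 0 of 8 rose and 4 fell in the same comparison, with a median log2 fold change of -0.59. Macrophage and Kupffer cell markers rose in 8 of 8 (median 1.48), endothelial markers in 3 of 6, stellate cell markers in 3 of 8, leukocyte markers in 1 of 7 tested and cholangiocyte markers in 1 of 6. The part of these cell types in the values of the members was not tested. Pnpla3, a protein of the lipid droplet that remodels its lipids, had 0.288, 1.29 and 3.33 CPM in CON-GFP and 1.94, 5.36 and 6.29 CPM in FPC-GFP. It rose 3.06-fold at a low level, with overlap (1.61 ± 0.45, edgeR adjusted p = 0.0176).

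The start regions of 3 members are shown because their genes are examples of the rise in synthesis (Fasn), of the rise in elongation (Elovl5) and of the fall with the diet (Lpin1). Each runs 5′ to 3′ from 250 bases before to 50 bases after the annotated start of the gene in RefSeq (GRCm38.p6). Capitals mark a CACGTG E-box or a CCAAT box on either strand, and only the first of overlapping matches is marked.
Fasn, chr11:120824498-120824797, minus strand: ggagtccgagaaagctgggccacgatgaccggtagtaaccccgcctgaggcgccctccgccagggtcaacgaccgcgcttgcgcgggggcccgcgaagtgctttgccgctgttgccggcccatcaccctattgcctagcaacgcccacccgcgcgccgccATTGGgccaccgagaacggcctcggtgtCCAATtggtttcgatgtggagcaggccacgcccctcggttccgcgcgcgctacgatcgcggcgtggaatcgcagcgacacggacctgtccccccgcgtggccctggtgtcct
Elovl5, chr9:77917115-77917414, plus strand: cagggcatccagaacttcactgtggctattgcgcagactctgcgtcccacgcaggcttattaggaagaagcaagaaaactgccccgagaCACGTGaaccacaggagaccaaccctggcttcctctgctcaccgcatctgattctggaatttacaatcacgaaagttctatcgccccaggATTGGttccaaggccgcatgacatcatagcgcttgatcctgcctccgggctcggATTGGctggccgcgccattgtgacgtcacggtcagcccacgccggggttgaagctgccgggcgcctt
Lpin1, chr12:16610917-16611216, minus strand: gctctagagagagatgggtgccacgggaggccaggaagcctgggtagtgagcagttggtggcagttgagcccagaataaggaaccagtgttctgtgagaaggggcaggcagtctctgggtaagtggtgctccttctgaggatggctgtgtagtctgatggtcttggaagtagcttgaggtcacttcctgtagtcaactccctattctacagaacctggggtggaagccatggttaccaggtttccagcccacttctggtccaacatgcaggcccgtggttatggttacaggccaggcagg
The Fasn region held CCAAT letters beginning 90 and 62 bases before the start. The letters at 62 run on as CCAATTGG, so a further CCAAT on the opposite strand overlaps them and is not in capitals. The Elovl5 region held an E-box beginning 161 bases before the start and CCAAT letters 71 and 17 bases before it. The Lpin1 region held neither motif, and none of the 3 regions held the sterol regulatory element spelled TCACNCCAC. Of 32851 promoters of 300 bases, 7.15% held the E-box, 37.4% CCAAT and 1.24% the sterol regulatory element on either strand. Among the 31 members with an entry, 5 held the E-box (Mlxipl, Slc25a1, Elovl5, Lpin2 and Lpin3), 19 held CCAAT and 1 (Mlxipl) the sterol regulatory element. Of the 13 of these members that rose with the diet, 9 held CCAAT, 1 the E-box and 0 the sterol regulatory element. No match of 1 motif overlapped a match of a different motif in the regions shown, and a match describes only the letters of this window. Promoters of Scd1, Scd2, Fads1, Elovl3, Gpat4, Dgat1 and Dgat2 were not analysed here.

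The second comparison, FPC-LIPA against FPC-GFP, asks what added LAL changed on the FPC diet. It shares the FPC-GFP libraries with the first comparison, so a high FPC-GFP value raises the first difference and lowers the second. The members that fell were both acetyl-CoA carboxylases and Fasn, the desaturases Fads2 and Fads6, the elongase Elovl2 and Dgat2, each by 1.60-fold to 1.93-fold, while Scd1, Scd2 and Elovl5 did not pass. Of the 38 members 7 fell, which is 18.4%, where 6.87% of the 14620 genes tested fell. By edgeR 0 rose, where 14.4% of all genes rose. At an unadjusted p under 0.05 edgeR had 14 members lower and 0 higher, and the share of all genes at that threshold was not counted. The DESeq2 Wald test called 10 lower and 0 higher at an adjusted p under 0.05, where 1559 and 2823 of 25477 genes were. With at least 2-fold as well, 0 members were higher, against 10.3% of all genes, and 0 were lower, against 1.11%. In 1 member, Acacb, every FPC-LIPA library was below every FPC-GFP library, or 2.63% of members against 4.3% of all genes, and in 0 members was every library above, against 3.36%. The median log2 fold change was -0.27 over the members and 0.04 over all genes. Scaling by library size alone moved the median of all genes by -0.13 on the log2 scale, gave 1172 genes that rose and 266 that fell in place of 2098 and 1004, and left 2 members that fell.

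**Figure D3:**
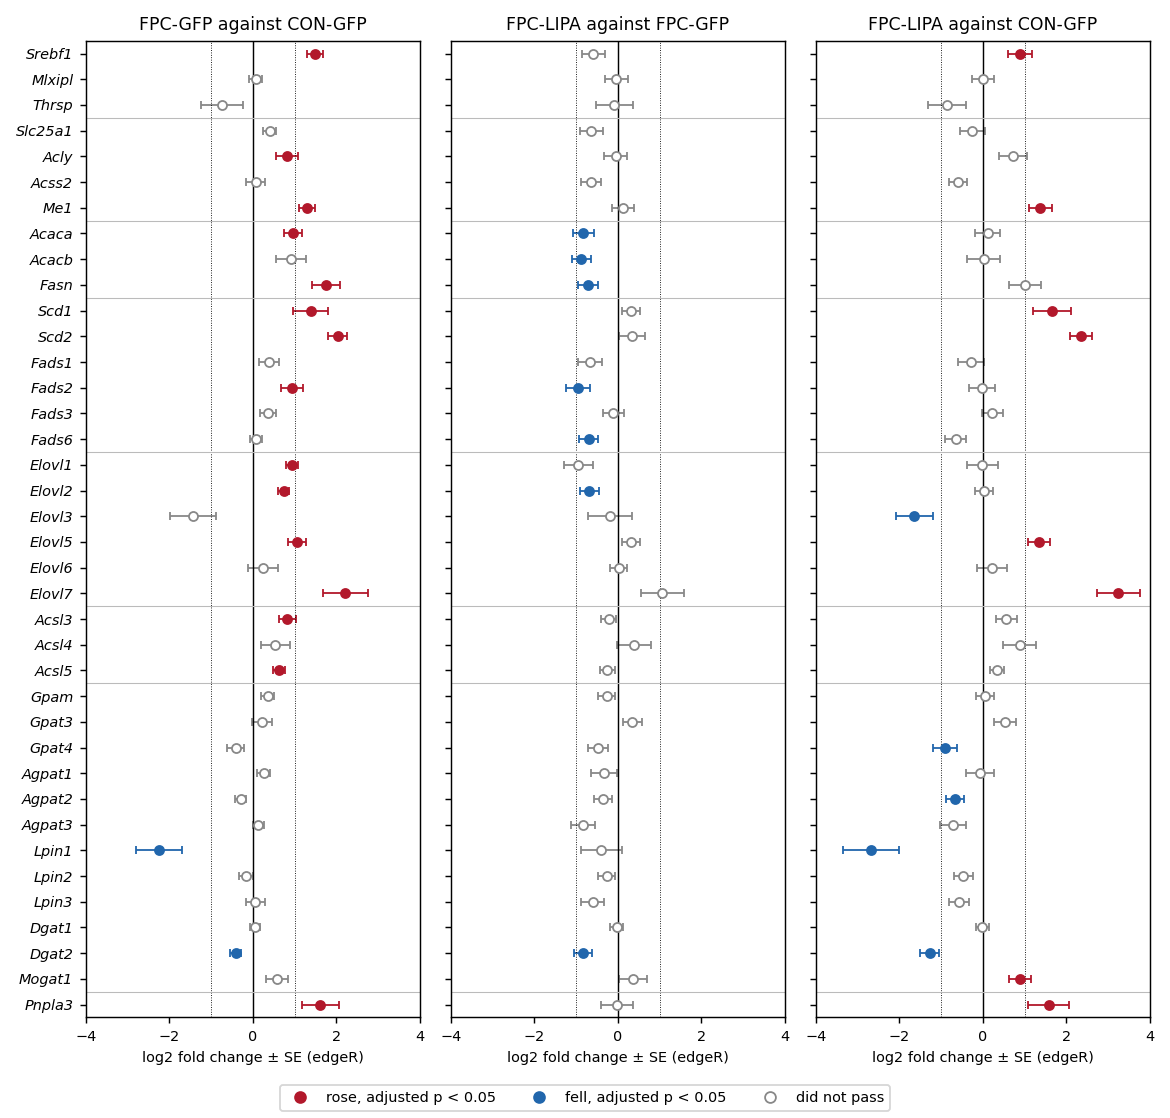
Log2 fold changes with SE of the 38 members in the 3 comparisons (edgeR quasi-likelihood fits, 6 against 6 libraries), in the same order by role, with dotted lines at 2-fold. Filled red points rose and filled blue points fell at an adjusted p under 0.05: 15 and 2 in the first panel, 0 and 7 in the second and 8 and 5 in the third.

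In fatty acid synthesis all 3 members fell. Acaca had 119, 140.2 and 184 CPM in FPC-GFP and 42.3, 72.5 and 120.1 CPM in FPC-LIPA. FPC-LIPA 36, 37 and 39 were at 53.3, 42.3 and 51.3 CPM, and 31, 33 and 34 at 120.1, 91.7 and 114 CPM. Only FPC-LIPA 31 reached the FPC-GFP range, and the log2 fold change was -0.83 ± 0.25, edgeR adjusted p = 0.0326. The call of Acaca was lost in 12 of 20 alternative fits (edgeR adjusted p up to 0.237). Acacb had 99.2, 119 and 166 CPM in FPC-GFP and 40.4, 73.9 and 92.2 CPM in FPC-LIPA. The groups did not overlap, and Acacb fell 1.83-fold (-0.88 ± 0.22, edgeR adjusted p = 0.0209). Fasn had 599, 728 and 833 CPM in FPC-GFP and 235, 414 and 618 CPM in FPC-LIPA. Only FPC-LIPA 33 was within the FPC-GFP range, and Fasn fell 1.65-fold (-0.72 ± 0.24, edgeR adjusted p = 0.0442). The call of Fasn was lost in 16 of 20 alternative fits (edgeR adjusted p up to 0.21). Among these were the fits lacking any single FPC-GFP library or FPC-LIPA 31, 36, 37 or 39. Acacb of every FPC-LIPA library lay within the CON-GFP range, while Acaca was above that range in FPC-LIPA 31 and 34 and just below it in 37. Fasn was above the CON-GFP median of 199.8 CPM in each FPC-LIPA library.

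Of the desaturases, Fads2 had 793, 1186 and 1702 CPM in FPC-GFP and 273, 664 and 825 CPM in FPC-LIPA. FPC-LIPA 33 and 34 lay within the FPC-GFP range, 36 and 37 were lowest, and Fads2 fell 1.93-fold (-0.95 ± 0.28, edgeR adjusted p = 0.031). Fads6, a family member of little-known function, had 82.9, 108 and 119 CPM in FPC-GFP and 30.5, 62.8 and 90.9 CPM in FPC-LIPA. The 3 libraries of high ribosomal share were its lowest, only FPC-LIPA 31 and FPC-GFP 11 lay within the other group's range, and Fads6 fell 1.62-fold (-0.70 ± 0.22, edgeR adjusted p = 0.0412). Fads1 had 164, 331 and 552 CPM in FPC-LIPA and did not pass (-0.67 ± 0.28, edgeR adjusted p = 0.0917). Scd1 had 23782, 35268 and 49317 CPM in FPC-LIPA, where the group's median was above that of FPC-GFP, and did not pass (0.31 ± 0.22, edgeR adjusted p = 0.289). Scd2 with 10.7, 27.8 and 30.6 CPM did not pass either (0.34 ± 0.30, edgeR adjusted p = 0.421).

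Of the elongases, Elovl2 had 432, 571 and 678 CPM in FPC-GFP and 215, 335 and 559 CPM in FPC-LIPA. FPC-LIPA 34 was within the FPC-GFP range and the other 5 were below it, and Elovl2 fell 1.60-fold (-0.68 ± 0.22, edgeR adjusted p = 0.0404). Elovl1 had 7.18, 22.1 and 43.8 CPM in FPC-LIPA, with 36, 37 and 39 at 10.8, 7.18 and 14.2 CPM, below every CON-GFP library. Elovl1 did not pass (-0.94 ± 0.35, edgeR adjusted p = 0.0637). Elovl5 had 986, 1309.6 and 1754 CPM in FPC-LIPA, a range that overlapped that of FPC-GFP (0.32 ± 0.22, edgeR adjusted p = 0.295). Elovl6 with 68.2, 109 and 137 CPM, Elovl3 with 89.1, 157 and 340.1 CPM and Elovl7 with 0.994, 2.01 and 5.10 CPM did not pass, with log2 fold changes of 0.02 ± 0.21, -0.19 ± 0.52 and 1.07 ± 0.52.

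Among the regulators and the supply genes, 0 of 7 passed. Srebf1 had 115, 309 and 497 CPM in FPC-LIPA, with FPC-LIPA 33 in the middle of the FPC-GFP range and FPC-LIPA 37 lowest at 115 CPM. The log2 fold change was -0.58 ± 0.27, edgeR adjusted p = 0.114. Mlxipl had 162, 310.0 and 519 CPM (-0.04 ± 0.27, edgeR adjusted p = 0.928) and Thrsp 228.3, 386 and 966 CPM (-0.09 ± 0.45, edgeR adjusted p = 0.899), and both spread over the FPC-GFP values. Acly had 119.5, 171 and 372 CPM, with FPC-LIPA 37 far above the others (-0.06 ± 0.28, edgeR adjusted p = 0.897). Me1 had 286, 632 and 872 CPM, and in contrast to Acaca it was highest in FPC-LIPA 36, 37 and 39 (0.12 ± 0.26, edgeR adjusted p = 0.76). Slc25a1 at -0.63 ± 0.28 and Acss2 at -0.64 ± 0.23 on the log2 scale did not pass.

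In glycerolipid synthesis 1 of 12 members fell, which is near the 6.87% of all genes tested that fell. Dgat2 had 308, 420.1 and 470.1 CPM in FPC-GFP and 119, 246 and 317 CPM in FPC-LIPA. Only FPC-LIPA 33 was within the FPC-GFP range, and Dgat2 fell 1.78-fold (-0.83 ± 0.22, edgeR adjusted p = 0.0216). Agpat3 was the nearest to the threshold among those that did not pass, with 221 to 311 CPM in FPC-GFP and 65.3 to 232 CPM in FPC-LIPA (-0.83 ± 0.29, edgeR adjusted p = 0.051). Gpam with 131, 193 and 237 CPM and Dgat1 with 17.2, 23.0 and 27.0 CPM had log2 fold changes of -0.27 ± 0.20 and -0.03 ± 0.15. Lpin1 with 13.8, 23.1 and 111 CPM was low in 5 libraries and at 111 CPM in FPC-LIPA 39 (-0.40 ± 0.49, edgeR adjusted p = 0.558). Pnpla3 had 1.54, 3.56 and 7.82 CPM (-0.02 ± 0.38, edgeR adjusted p = 0.966).

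**Figure D4:**
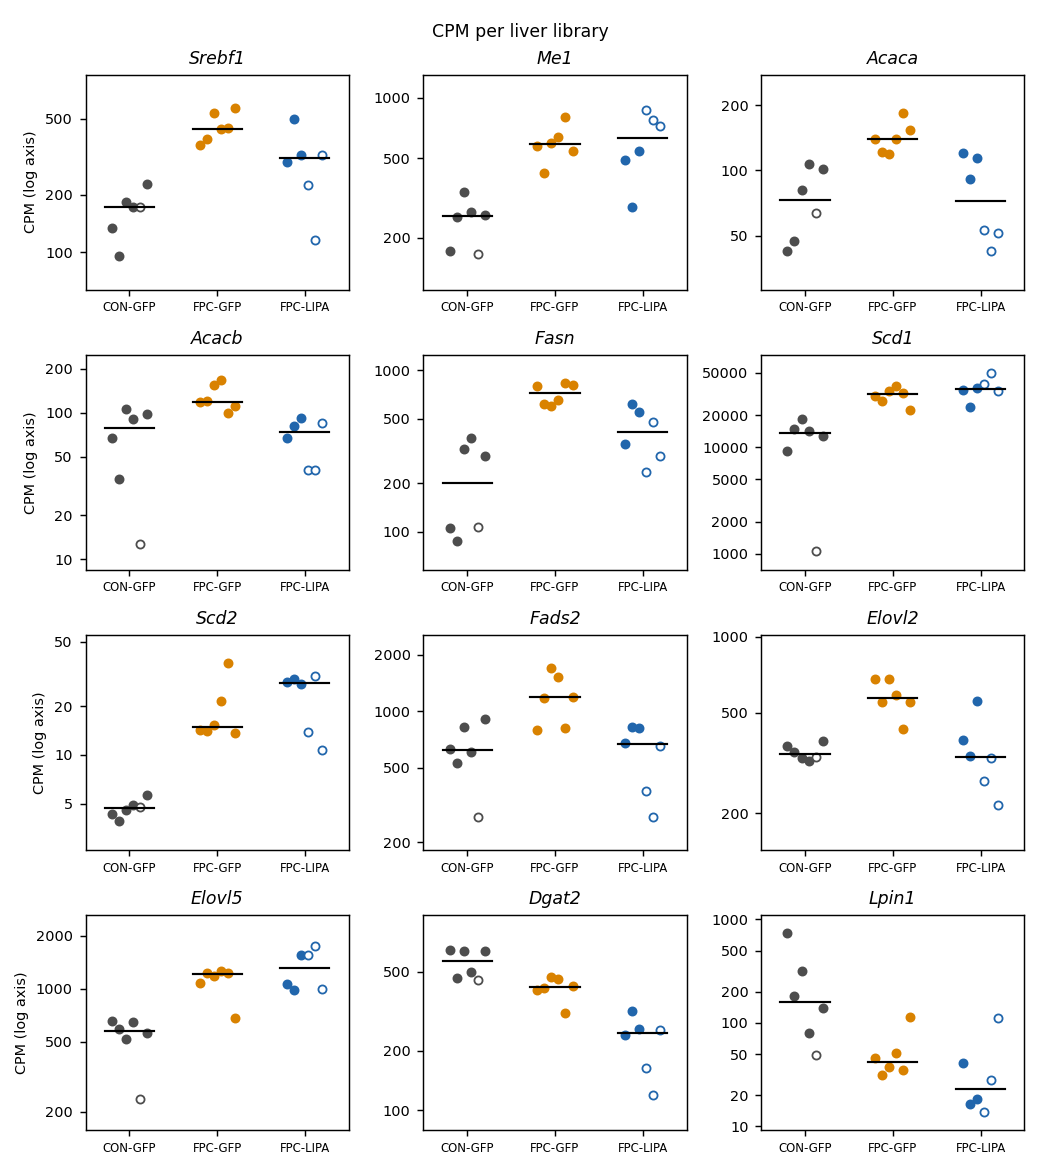
CPM per library (log axes) for 12 members, with a dot for each of 6 mice per group and a line at the median. Open dots are CON-GFP 7 and FPC-LIPA 36, 37 and 39. The diet groups separate fully for Srebf1, Me1, Acaca, Fasn, Scd1, Scd2, Elovl2 and Elovl5, and FPC-LIPA lies fully below FPC-GFP only for Acacb.

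In 4 of the 7 members that fell, the lowest FPC-LIPA libraries were those of high ribosomal share. How often this holds among all genes that fell was not counted. Over the 38 members this order was about as frequent as over all genes tested. FPC-LIPA 36, 37 and 39 were the 3 lowest of their group in 11 of the 38 members (28.9%, against 27.6% of all genes tested), among them Acaca, Fads2, Fads6 and Elovl2, and the 3 highest in 4 members (10.5%, against 21.1%), Thrsp, Me1, Acsl4 and Gpat3. Without these 3 libraries, a choice made after the data were seen, edgeR called 0 members higher and 0 lower, with 0 higher and 10 lower at an unadjusted p under 0.05. The share of all genes at the unadjusted threshold was not counted. The fitted log2 fold changes of the 7 members then ran from -0.67 in Acacb (edgeR adjusted p = 0.0883) to -0.32 in Fads6 (edgeR adjusted p = 0.261), all of the same sign as with all 6 libraries. Dgat2 was at -0.59 ± 0.16, edgeR adjusted p = 0.0943. With 3 FPC-LIPA libraries 186 genes in all were called, 169 higher and 17 lower of 15246 tested, in place of 3102. When single libraries were left out, 1 member fell in the fit lacking FPC-LIPA 36, where 206 of 14746 genes tested fell. In the fit lacking FPC-LIPA 33 it was 14 members, where 2412 of 14696 genes fell. The number was 2 in the fits lacking FPC-GFP 12, 13, 16 or 20 or FPC-LIPA 37 or 39 (245 to 450 of all genes). It was 4 in those lacking FPC-GFP 11 or 19 (315 and 543 of all genes). It was 6 when FPC-LIPA 31 was left out (879 of all genes) and 11 when FPC-LIPA 34 was (1463 of all genes). Acacb kept its call in each of these 12 fits, and Dgat2 in each but that without FPC-LIPA 36 (edgeR adjusted p = 0.0531). Over all 20 alternative fits the call was lost in 16 for Fasn, 13 for Fads6, 12 for Acaca and 12 for Elovl2. It was lost in 10 for Fads2, 3 for Acacb and 3 for Dgat2. Whether the ribosomal share has a part in the falls was not tested. In the same comparison macrophage and Kupffer cell markers rose in 4 of 8, leukocyte markers in 4 of 8 and stellate cell markers in 4 of 8, while 1 of 8 hepatocyte markers fell. Of the 2 adipocyte markers tested 1 fell, the lipase gene Lipe (-1.23 ± 0.26, edgeR adjusted p = 0.0136). The part of these cell types was not tested either.

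**Figure D5:**
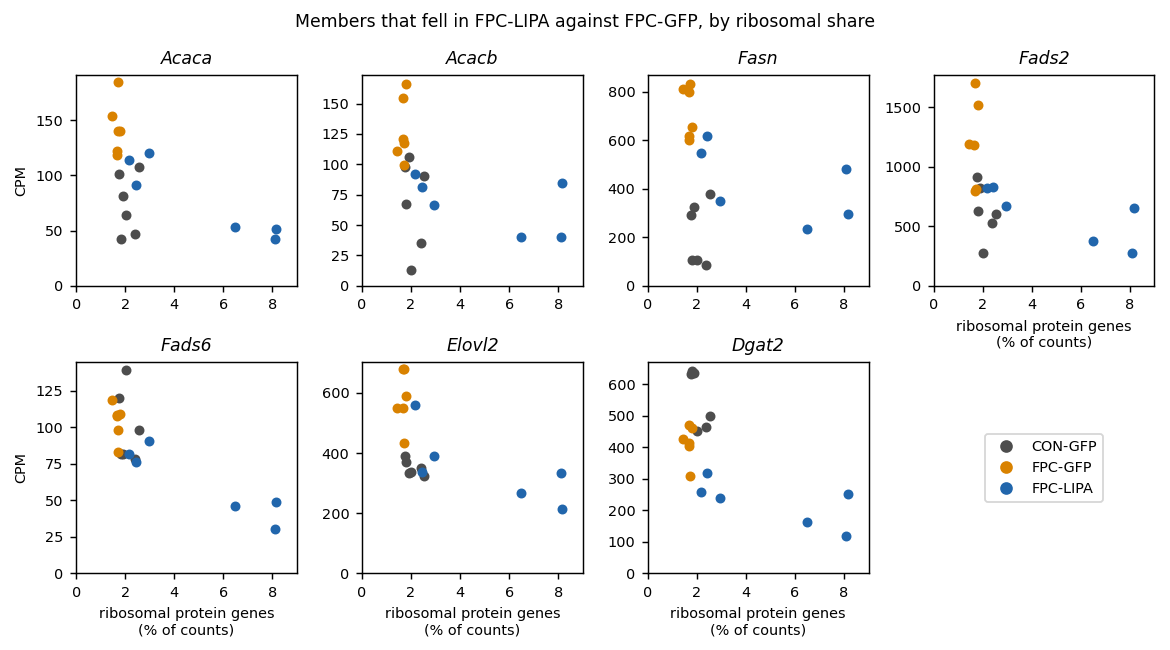
CPM of the 7 members that fell in FPC-LIPA against FPC-GFP (vertical axes) against the share of counts on 87 ribosomal protein genes (horizontal axes, %) in each of 18 libraries. FPC-LIPA 36, 37 and 39 stand at 6.49% to 8.16% and, in Acaca, Fads2, Fads6 and Elovl2, below all other FPC-LIPA libraries.

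The third comparison, FPC-LIPA against CON-GFP, sets the mice with both the diet and LIPA beside the control mice and shares its libraries with both comparisons above. Of the 38 members 8 rose, or 21.1% where 14.7% of the 14433 genes tested rose, and 5 fell, or 13.2% against 8.2%. With at least 2-fold as well, 6 were higher, or 15.8% against 11.8%, and 3 were lower, or 7.89% against 3.25%. In 4 members every FPC-LIPA library was above every CON-GFP library, or 10.5% against 5.58%, and in 1 every library was below, or 2.63% against 5.56%. The median log2 fold change was 0.03 over the members and 0.04 over all genes. Library size alone gave 8 and 3 members in place of 8 and 5, and 2367 and 535 genes in place of 2120 and 1184.

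The members that rose were Srebf1, Me1, Scd1, Scd2, Elovl5, Elovl7, Pnpla3 and Mogat1. Scd2 rose 5.09-fold (log2 fold change 2.35 ± 0.26, edgeR adjusted p = 4.85e-05) and Scd1 rose 3.16-fold (1.66 ± 0.46, edgeR adjusted p = 0.0179), both without overlap, although without the 3 libraries of high ribosomal share Scd1 was at 1.43 ± 0.54, edgeR adjusted p = 0.0874. Elovl5 rose 2.54-fold (1.34 ± 0.26, edgeR adjusted p = 0.00271) and Elovl7 9.47-fold (3.24 ± 0.51, edgeR adjusted p = 0.000594), again without overlap. Me1 rose 2.61-fold, with FPC-LIPA 33 inside the CON-GFP range (1.38 ± 0.28, edgeR adjusted p = 0.00296). Srebf1 rose 1.85-fold, with FPC-LIPA 36 and 37 inside the CON-GFP range (0.89 ± 0.29, edgeR adjusted p = 0.0399). Its call was lost without CON-GFP 1, 2, 3, 6 or 7 or FPC-LIPA 31, 33, 34 or 39 (edgeR adjusted p = 0.0549 to 0.0893). Pnpla3 rose 2.98-fold (1.58 ± 0.49, edgeR adjusted p = 0.0306), a call that was lost in the fits lacking CON-GFP 1, 2, 3 or 8 and in those lacking FPC-LIPA 33 or 39 (edgeR adjusted p = 0.0508 to 0.0709). Mogat1, which acylates monoacylglycerol and is low in normal adult mouse liver, had 5.88, 7.70 and 9.01 CPM in CON-GFP, 3.60, 11.7 and 15.5 in FPC-GFP and 7.40, 11.4 and 25.1 in FPC-LIPA. FPC-LIPA 37 was highest and the ranges of CON-GFP and FPC-LIPA overlapped (0.90 ± 0.26, edgeR adjusted p = 0.0246). The call of Mogat1 was lost without CON-GFP 1 or 7 (edgeR adjusted p = 0.0614 and 0.0582).

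The 5 that fell were Dgat2, Lpin1, Elovl3, Gpat4 and Agpat2, of which 4 belong to glycerolipid synthesis. In Dgat2 every FPC-LIPA library was below every CON-GFP library, with a 2.41-fold fall (-1.27 ± 0.23, edgeR adjusted p = 0.00163), and fell in each of the 3 comparisons. Lpin1 fell 6.40-fold, with FPC-LIPA 39 inside the CON-GFP range (-2.68 ± 0.67, edgeR adjusted p = 0.0111). Its log2 fold change was -1.98 in the fit lacking CON-GFP 1, -3.39 in the fit lacking FPC-LIPA 39 and -3.28 without the 3 libraries of high ribosomal share. With only libraries whose sample description ends in a number of 55 to 68 it was -1.83 ± 0.67, edgeR adjusted p = 0.109, and the call was lost. Elovl3 fell 3.12-fold (-1.64 ± 0.45, edgeR adjusted p = 0.0168). Gpat4, a glycerol-phosphate acyltransferase of the endoplasmic reticulum and lipid droplets, had 151, 259.6 and 392 CPM in CON-GFP, 147, 202 and 242 in FPC-GFP and 57.1, 152 and 192 in FPC-LIPA. The groups overlapped, CON-GFP 1 was the highest and FPC-LIPA 37 the lowest (-0.91 ± 0.28, edgeR adjusted p = 0.0311). Agpat2, the enzyme whose loss causes lipodystrophy, had 318, 372 and 447 CPM in CON-GFP, 242, 309 and 383 in FPC-GFP and 125, 230.4 and 321 in FPC-LIPA. Only FPC-LIPA 34 reached the CON-GFP range (-0.66 ± 0.21, edgeR adjusted p = 0.0341). The calls of Gpat4 and Agpat2 were lost without CON-GFP 1, 2 or 3 or FPC-LIPA 36, and that of Agpat2 also without CON-GFP 8 or FPC-LIPA 39 (edgeR adjusted p = 0.053 to 0.0758 for Gpat4 and 0.0532 to 0.0766 for Agpat2). Without the 3 libraries of high ribosomal share 7 members rose and 2 fell, where 1763 and 957 of 15113 genes tested rose and fell. In that fit Scd1, Mogat1, Elovl3, Gpat4 and Agpat2 lost their calls (edgeR adjusted p = 0.0874, 0.077, 0.114, 0.119 and 0.126). Hepatocyte markers fell in 5 of 8 in this comparison, with a median log2 fold change of -1.06. Macrophage and Kupffer cell markers rose in 8 of 8 (median 2.06), leukocyte markers in 4 of 8, endothelial markers in 4 of 6, cholangiocyte markers in 1 of 6 and stellate cell markers in 4 of 8, where 1 fell, and 1 of 2 adipocyte markers tested (Lipe) fell. The part of these cell types was not tested.

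Set side by side, 4 members (Acaca, Fasn, Fads2 and Elovl2) rose with the diet and fell with LIPA, and in FPC-LIPA against CON-GFP they did not pass, with log2 fold changes of 0.12 ± 0.30, 1.01 ± 0.39, -0.03 ± 0.31 and 0.03 ± 0.21. Their calls as falls with LIPA were lost in 10 (Fads2) to 16 (Fasn) of 20 alternative fits. A further 7 (Srebf1, Me1, Scd1, Scd2, Elovl5, Elovl7 and Pnpla3) rose with the diet, did not pass with LIPA and rose in FPC-LIPA against CON-GFP. Acly, Elovl1, Acsl3 and Acsl5 rose only in the first comparison. Acacb and Fads6 passed only as falls with LIPA. Gpat4, Agpat2 and Elovl3 passed only as falls in the third comparison, and Mogat1 only as a rise there. The other 15 members passed in none: Mlxipl, Thrsp, Slc25a1, Acss2, Fads1, Fads3, Elovl6, Acsl4, Gpam, Gpat3, Agpat1, Agpat3, Lpin2, Lpin3 and Dgat1. Their fitted log2 fold changes ran from -0.74 to 0.54 with the diet, from -0.83 to 0.39 with LIPA and from -0.86 to 0.88 in the third comparison, with a smallest edgeR adjusted p of 0.0781, 0.0510 and 0.0642. Since the comparisons share libraries, a mouse that was high or low in FPC-GFP takes part in both of the first patterns.

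The members varied more between mice than most genes in CON-GFP and about as much in the other groups. The median SD of log2 CPM over the members was 0.43 in CON-GFP, 0.30 in FPC-GFP and 0.59 in FPC-LIPA, beside 0.32, 0.27 and 0.58 over all 14818 genes tested in any comparison. In CON-GFP the SD ran from 0.10 in Elovl2 to 1.54 in Scd1. CON-GFP 7 was the lowest of its group in 18 of the 38 members, among them Scd1, Acacb, Elovl5, Fads1, Fads2, Thrsp and Pnpla3, and the highest in 4, such as Fads6 at 139 CPM. In FPC-GFP the most variable member was Elovl3, with 471 and 458 CPM in mice 11 and 12 and 47.1 CPM in mouse 20. In FPC-LIPA, 37 was the lowest library in 15 members and the highest in 11, among them Scd1, Acly and Mogat1. That library had the lowest total counts of the 18, at 16632146, and its sample title reads 37b. Without CON-GFP 7 the diet comparison gave 15 members that rose and 3 that fell, where 1847 and 1661 of 14430 genes tested did. In that fit Acly lost its call (edgeR adjusted p = 0.0671).

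Other genes of the pathway were followed in 4 lists, which were not tested as sets. The calls of these genes were not followed through the alternative fits. With LIPA many calls over all genes were lost there: 186 were made without the 3 libraries of high ribosomal share, in place of 3102. For scale, 12.9% of all genes tested rose and 10.9% fell with the diet, and 14.4% and 6.87% with LIPA. In the third comparison 14.7% rose and 8.2% fell. Of the 10 tested partners of elongation and desaturation, 4 rose with the diet (Scd3, Cyb5b, Tecr and Hsd17b12) and Cyb5a, which passes electrons to the desaturases, fell, with a median log2 fold change of 0.28 over the list. Scd3, a desaturase next to Scd1 and Scd2, went from 0 to 0.268 CPM to 0.339 to 4.54 CPM (log2 fold change 3.30 ± 0.77, edgeR adjusted p = 0.00739) and may share reads with Scd1. With LIPA 2 rose and 0 fell at an adjusted p under 0.05 (edgeR), with a median of 0.12. These were Cyb5a (0.81 ± 0.27, edgeR adjusted p = 0.0471) and the dehydratase Hacd4 (1.03 ± 0.24, edgeR adjusted p = 0.0174), which had 1.71 to 3.44 CPM in FPC-GFP and 2.55 to 5.89 CPM in FPC-LIPA. In FPC-LIPA against CON-GFP 3 of 9 rose, Hacd4 (1.58 ± 0.30, edgeR adjusted p = 0.00201), Hacd1 and Hsd17b12, and 0 fell, with a median of -0.05.

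Of 14 genes of substrate and NADPH supply, 6 rose with the diet and Mpc2 fell, with a median of 0.14. The citrate importer Slc13a5 went from 0.168 to 1.27 CPM to 1.15 to 1.99 CPM (1.54 ± 0.37, edgeR adjusted p = 0.00821). Pgd, an NADPH-making enzyme of the pentose phosphate pathway, went from 22.8 to 40.9 CPM to 58.2 to 98.2 CPM without overlap (1.02 ± 0.15, edgeR adjusted p = 0.000566). The other 4 that rose were G6pdx, Tkt, Taldo1 and Gpd1, while Pgls, which acts between G6pdx and Pgd, did not pass (-0.12 ± 0.13, edgeR adjusted p = 0.53). With LIPA 3 rose and 3 fell, with a median of -0.24. The mitochondrial pyruvate carrier genes Mpc1 (1.78 ± 0.40, edgeR adjusted p = 0.0152) and Mpc2 (1.49 ± 0.36, edgeR adjusted p = 0.0188) and glycerol kinase Gk (1.28 ± 0.37, edgeR adjusted p = 0.0305) rose, with 167 to 868 CPM for Mpc1 in FPC-LIPA against 127 to 184 CPM in FPC-GFP. The glycerol-3-phosphate dehydrogenase Gpd1 (-0.96 ± 0.29, edgeR adjusted p = 0.0343), Pklr and Tkt fell. In the third comparison Mpc1 (1.48 ± 0.40, edgeR adjusted p = 0.0161), Mpc2 (1.07 ± 0.36, edgeR adjusted p = 0.0432) and Idh1 (1.09 ± 0.37, edgeR adjusted p = 0.0458) rose and liver pyruvate kinase Pklr fell (-1.15 ± 0.23, edgeR adjusted p = 0.00334), with a median of 0.41.

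Of 15 regulators outside the members, 3 rose with the diet and 0 fell, with a median of 0.11. Mid1ip1, a partner of Thrsp that promotes the assembly of Acaca into filaments, went from 7.89 to 24.6 CPM to 30.6 to 58.1 CPM without overlap (1.55 ± 0.27, edgeR adjusted p = 0.00133). The hormone gene Fgf21 rose 2.60-fold (1.38 ± 0.27, edgeR adjusted p = 0.00283) and Pparg 1.74-fold (0.80 ± 0.27, edgeR adjusted p = 0.0457). With LIPA 0 rose and 3 fell, with a median of -0.17: Rxra (-0.95 ± 0.23, edgeR adjusted p = 0.0183), the Srebf1 escort Scap (-0.70 ± 0.18, edgeR adjusted p = 0.0204) and Mid1ip1 (-0.81 ± 0.23, edgeR adjusted p = 0.0297). In the third comparison Fgf21 rose (1.22 ± 0.41, edgeR adjusted p = 0.0415) and Scap (-0.82 ± 0.20, edgeR adjusted p = 0.0104) and Rxra fell, with a median of -0.02. Of 18 tested genes of other acyl-CoA and glycerolipid enzymes, 2 rose with the diet, Cds2 (0.49 ± 0.09, edgeR adjusted p = 0.00253) and Slc27a4, and Pemt fell (-0.44 ± 0.12, edgeR adjusted p = 0.0194), with a median of 0.09. With LIPA 3 rose, Chpt1 (1.72 ± 0.51, edgeR adjusted p = 0.0312), Agpat5 and Cept1, and 5 fell, Pcyt1a (-0.77 ± 0.19, edgeR adjusted p = 0.0192), Lclat1, Fitm2, Cds2 and Slc27a4, with a median of -0.42. Chpt1, the last enzyme of phosphatidylcholine synthesis, ranged from 167 to 2223 CPM in FPC-LIPA. In the third comparison Agpat5 rose and Pcyt1a (-0.71 ± 0.20, edgeR adjusted p = 0.0188), Slc27a2 (-0.65 ± 0.18, edgeR adjusted p = 0.0208) and Acsl1 fell, with a median of -0.23.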

How the data were processed

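Liver RNA of 18 mice was sequenced, and the authors deposited raw counts per gene. According to the study's methods and the submitters' processing notes, reads were trimmed with Trimmomatic, aligned with Hisat2 2.1.0 to GRCm38 and counted with Feature Counts. The annotation version, the handling of reads with several placements and the strand setting are not given in the sources used here. The table held 23 columns of counts, of which 18 matched these samples and 5 were not used. The title of the sample used as FPC-LIPA 37 reads 37b, and its description ends in the suffix number 228. It was matched to the column of mouse 37, and the meaning of the letter b is not given in the sources used here. Total counts were 17741598 to 33588153 in CON-GFP, 17813507 to 31134367 in FPC-GFP and 16632146 to 37739301 in FPC-LIPA.

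The members and the gene lists were chosen with earlier results of these data known. Each comparison was fitted on its 12 libraries alone with edgeR 4.0.16 in R 4.3.3 (filterByExpr, TMM scaling, quasi-likelihood test, Benjamini-Hochberg adjustment over all genes tested). The SE is the log2 fold change divided by the square root of F. CPM values were scaled by TMM over 18 libraries, RPKM values by exon length, and log2 CPM used a prior count of 2. A marker at 3 counts or fewer was taken as at the floor. Every member is accounted for. Values by group are given for each member called in at least 1 comparison and, whatever their change, for Srebf1, Mlxipl, Acly, Acaca, Fasn, Scd1, Elovl6, Fads1, Fads2, Gpam, Dgat1, Dgat2, Thrsp and Pnpla3, and the others by range and count. Of each list, genes called with at least 2-fold are named, and otherwise the 2 of smallest adjusted p. Further list genes and the values of other members were named after their values were seen. Alternatives were the edgeR fit with its relative log expression (RLE) scaling in place of TMM, and the Wald test of DESeq2 1.42.0. Others were scaling by library size alone, no filter on low counts, 1 fit of all 18 libraries and removal of a trend with gene length. Further ones were only libraries whose sample description ends in a suffix number of 55 to 68, and a change of at least 2-fold. Each library was also left out in turn and, chosen after the data were seen, 3 FPC-LIPA libraries were left out. Tested on simulated data of the diet comparison (14153 genes), the fit recovered 49, 42, 42 and 50 of 50 genes at log2 fold changes of -2, -1, 1 and 2, and called 12 of 13953 unchanged genes. The changed genes were drawn from those with a mean count above 50. Recovery at lower counts and in the comparisons with FPC-LIPA was not simulated.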

Additional observations from a re-analysis of the deposited data

Results flagged for a closer look

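In 9 of the 114 sets of 6 CPM values, 1 library lay far from the others, with a gap to its nearest neighbour above 0.625 of the whole range (Dixon's 95% value for 6 samples). For independent, normally distributed values chance alone flags about 1 in 20 sets. The 114 sets are CPM values of the same 18 libraries, so that rate need not hold here. Elovl5 was at 236 CPM in CON-GFP 7, where the other 5 mice had 521 to 653 CPM, and at 682 CPM in FPC-GFP 20, where the others had 1081 to 1256. FPC-GFP 20 also stood apart for Acsl5, at 365 CPM against 521 to 597, and for Lpin1, at 113 CPM against 31.5 to 50.7. FPC-LIPA 39 stood apart for Lpin1 at 111 CPM against 13.8 to 41.3 and for Thrsp at 966 CPM against 228.3 to 464. Acly was at 372 CPM in FPC-LIPA 37, with 120 to 196 in the others. Scd2 was at 36.7 CPM in FPC-GFP 19, with 13.7 to 21.5 in the others, and Gpam was at 286 CPM in CON-GFP 6, with 150 to 187 in the others. The causes were not tested.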

How the results depend on the processing

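No called member changed direction under any alternative: of 323 values for the 17 members called with the diet 297 kept their call and 26 lost it, of 140 for the 7 called with LIPA 71 kept it and 69 lost it, and of 260 for the 13 called in FPC-LIPA against CON-GFP 215 kept it and 45 lost it. With the diet, the 15 members that rose became 8 with at least 2-fold, 12 with suffix numbers 55 to 68 (where Scd1, Fads2, Pnpla3 and Acly lost their calls), 13 in 1 fit of 18 libraries, 20 with library size alone and 13 to 16 with single libraries left out. The 2 that fell became 1 with library size alone, no filter, 1 fit of 18 libraries, suffix numbers 55 to 68 or at least 2-fold, and 1 to 3 with single libraries left out. Over all genes 1850 rose and 1560 fell with the diet in the main fit. These became 1111 and 884 with suffix numbers 55 to 68 and 877 and 475 in 1 fit of 18 libraries. They were 3387 and 692 with library size alone and 1666 and 1323 with no filter. With LIPA, the count that rose stayed at 0 in all settings, also with single libraries left out (0 to 0). The 7 that fell became 2 with library size alone, 4 with no filter, 0 with suffix numbers 55 to 68, 0 with at least 2-fold, 0 without the 3 libraries of high ribosomal share, and 1 to 14 with single libraries left out. Over all genes 1004 fell in the main fit, 266 with library size alone and 699 with no filter. The number was 4 with suffix numbers 55 to 68 and 17 without the 3 libraries of high ribosomal share. So few genes fell in these settings that 0 members there says little about the members. With single libraries left out the number over all genes ran from 206 to 2412. In FPC-LIPA against CON-GFP the 8 that rose became 4 with suffix numbers 55 to 68 and 5 (without CON-GFP 1) to 10 with single libraries left out. The 5 that fell became 3 with library size alone, 1 with suffix numbers 55 to 68, 3 with at least 2-fold, 2 without the 3 libraries and 3 to 8 with single libraries left out. Over all genes 2120 rose and 1184 fell in the main fit of this comparison, and 934 and 468 with suffix numbers 55 to 68. The number that fell was 535 with library size alone and 957 without the 3 libraries. Library size alone moved the median log2 fold change of all genes by 0.20, -0.13 and 0.09. Suffix numbers 55 to 68 left out 4 libraries (CON-GFP 1, CON-GFP 2, FPC-GFP 20, FPC-LIPA 37), so fewer samples entered those fits. The other causes were not tested. No paired analysis was possible because the groups share no mouse numbers.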
